A study of Mus musculus with 96 samples.

Results

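The miR-99, miR-100 and miR-125 families were followed through 9 mature microRNAs (miRNAs), taken by name from the deposited table of mature miRNA counts of every library. They were mmu-miR-99a-5p, mmu-miR-99b-5p, mmu-miR-99b-3p, mmu-miR-100-5p, mmu-miR-125a-5p, mmu-miR-125a-3p, mmu-miR-125b-5p, mmu-miR-125b-1-3p and mmu-miR-125b-2-3p, written here without the species prefix. These were 9 of 1978 mature sequences listed, of which 1561 had at least 1 count. No cut on measured values set the choice of the 9 names, though earlier results of these data were known when they were chosen. All 9 passed the filter on low counts in each of the 4 cell types.

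Small RNA was sequenced from 4 cell types of the mouse heart, namely fibroblasts (FB), hematopoietic cells (HC), cardiomyocytes (CM) and endothelial cells (EC), at 6 time points around myocardial infarction (MI). The design had 24 groups of 4 libraries each, 96 libraries in all. Day 0 (D0) hearts came from animals without an operation, and hearts at D1, D3, D7, D14 and D28 came from animals with permanent ligation of the left anterior descending coronary artery. All animals were male C57Bl/6J mice aged 12 to 14 weeks, and the study's methods name no transgene and no drug. Every library held a pool of RNA of 3 mice (2 if one had dropped out), and the study's methods call these pools both biological and technical replicates, so p-values measure the spread between pools. CM were separated by centrifugation, HC and EC by magnetic beads against CD45 and CD144, and FB by plating. D0 animals were not sham operated, so effects of surgery and of infarction cannot be told apart.

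A miRNA is cut from a hairpin precursor whose arms give a 5p and a 3p product, and the arm that is kept in Argonaute is usually far more abundant. It recognises target mRNAs mainly through its seed, bases 2 to 8 from the 5′ end, so miRNAs with the same seed form a family. The miR-99/100 family is known for targets in growth signalling, among them mTOR and the IGF-1 receptor. The miR-125 family descends from lin-4, the founding miRNA of Caenorhabditis elegans, and is known for roles in blood cell formation and, for miR-125b, in cardiac fibroblast activation. In mammals a miR-99/100 gene, a let-7 gene and a miR-125 gene lie together in clusters.

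The mature sequences, from RefSeq on GRCm38.p6, are shown because they define which members share a seed and how little separates some of them. Bases 2 to 8 are in capitals, and positions are counted from 1 at the 5′ end. The 5p members fell into 2 seed families.
miR-99a-5p: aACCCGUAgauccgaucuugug
miR-100-5p: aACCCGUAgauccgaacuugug
miR-99b-5p: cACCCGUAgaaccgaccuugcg
miR-125a-5p: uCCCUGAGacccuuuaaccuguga
miR-125b-5p: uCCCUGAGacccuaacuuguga
The 3p members each had a seed of their own.
miR-99b-3p: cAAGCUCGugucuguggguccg
miR-125a-3p: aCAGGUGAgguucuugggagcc
miR-125b-1-3p: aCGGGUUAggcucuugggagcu
miR-125b-2-3p: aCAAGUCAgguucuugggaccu
miR-99a-5p and miR-100-5p differed by the single substitution U16A, outside the seed. miR-99a-5p and miR-99b-5p differed by A1C, U11A, U16C and U21C. The products of both miR-125b hairpins are one and the same on the 5p arm, whereas the 3p arms miR-125b-1-3p and miR-125b-2-3p differed by G3A, G4A, U7C, C11U and G20C, of which 3 lie in the seed.

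The hairpins lay in 3 clusters, all on the plus strand of GRCm38. On chromosome 16, Mir99a (chr16:77598936-77599000), Mirlet7c-1 (chr16:77599657-77599750) and Mir125b-2 (chr16:77646273-77646343) lay in introns of the noncoding host gene Mir99ahg, over 47408 bases. On chromosome 9, Mir100 (chr9:41531425-41531504), Mirlet7a-2 (chr9:41536716-41536811) and Mir125b-1 (chr9:41581926-41582002) lay in introns of 3110039I08Rik and Gm49317, over 50578 bases, with Mir125b-1 also inside an exon of Gm28119. On chromosome 17, Mir99b (chr17:17830188-17830257), Mirlet7e (chr17:17830352-17830444) and Mir125a (chr17:17830812-17830879) lay within 692 bases, the former pair in introns of Spaca6 and Mir125a overlapping a Spaca6 exon. miR-125b-5p therefore sums the output of the chromosome 9 and chromosome 16 clusters, while miR-125b-1-3p and miR-125b-2-3p each mark 1 of them.

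Mature counts per library ran from 18286 to 65588543, with medians of 13945009 in CM, 3583269 in EC, 17767778 in FB and 11941955 in HC. The 9 miRNAs took a median 3.726% of mature counts in CM, 4.498% in EC, 13.544% in FB and 4.52% in HC. The shallowest library, replicate 3 of HC at D0 with 18286 counts, had 0 counts of miR-99b-3p, miR-125a-3p and miR-125b-1-3p, which allows up to 164 CPM (the count divided by the library's mature total, times 1e+06) of each by counting error alone. By plain CPM, all 15 marker miRNAs of the 4 cell types were highest in the cell type they mark. The margin was narrow for miR-150-5p (2586 in HC, 2544 in EC) and miR-155-5p (164 in HC, 145 in CM). Scaled by trimmed mean of M values over the 96 libraries, miR-150-5p was higher in EC (2289) than in HC (1409). On that scale miR-155-5p was higher in CM (334) than in HC (88.9). RNA of other cell types was present, since the cardiomyocyte miR-1a-3p averaged 72906 CPM in EC and 61450 CPM in HC against 505167 CPM in CM.

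By plain CPM, FB held most of the members at their highest level, and the 3 clusters were spread over the cell types in different proportions. miR-99a-5p averaged 48695 CPM of mature counts in FB (31182 to 70705 over 24 libraries), 20547 in HC (8101 to 34886), 20299 in CM (7203 to 61137) and 14355 in EC (10174 to 18709). By rank of mean CPM it was the 5th miRNA in FB and the 6th in CM, but the 16th in HC and the 19th in EC. miR-100-5p, which differs from it by 1 base, followed the same order with 44579, 16464, 15535 and 12694 CPM.

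The order was not the same for the chromosome 17 members. miR-99b-5p averaged 10328 CPM in EC (5633 to 29356), 6088 in FB (4232 to 8514), 3692 in HC (1659 to 5847) and 516 in CM (304 to 815), so the CM libraries lay below every other library. miR-125a-5p averaged 9965 CPM in FB (6155 to 15977) and 8840 in EC (3688 to 25713), where the libraries overlapped, 4846 in HC (1196 to 9180) and 643 in CM (105 to 1415). miR-125b-5p stood apart in FB, with 26144 CPM (15679 to 40899) and no overlap with CM (4654, 445 to 10701), HC (4529, 1306 to 10263) or EC (2796, 1078 to 6883).

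**Figure D1:**
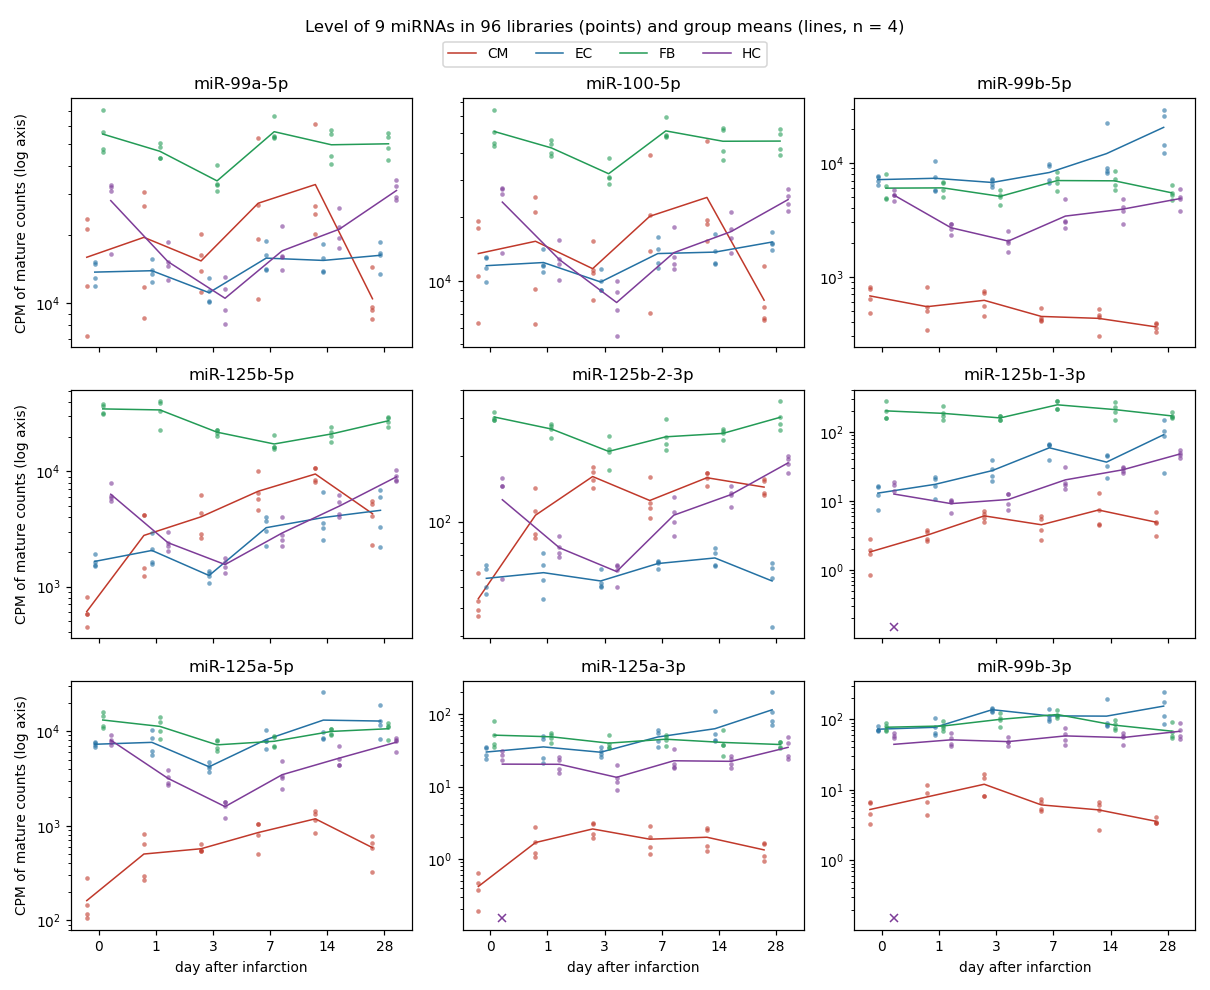
Level of the 9 miRNAs in each of the 96 libraries, in CPM of mature counts on a log axis, against day after infarction. Points are libraries, lines join group means (n = 4) and crosses at the bottom mark the library with 0 counts. miR-99b-5p, miR-125a-5p and their 3p arms lie lowest in CM on this scale, and miR-125b-5p lies highest in FB.

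Each pair of cell types was compared over all 6 days with edgeR's quasi-likelihood test on counts scaled by trimmed mean of M values (TMM) factors, with Benjamini-Hochberg adjustment over 712 miRNAs, and an adjusted p under 0.05 counted as a call. Of the 9 miRNAs, 9 were called between CM and EC, 8 between CM and FB, 8 between CM and HC, 7 between EC and FB, 7 between EC and HC and 9 between FB and HC. Over all miRNAs tested the shares called were 69.4%, 75.7%, 77.7%, 71.8%, 77.7% and 85.7% in the same order, so the 48 of 54 calls among the members lay near the background. RNA input, amplification cycles and library preparation went with cell type in the study's methods, so that they and the cell type cannot be told apart. The cell types of a time point came from the same animals, which these tests do not model. TMM factors over the 96 libraries were 0.1105 to 0.7964 in CM and 1.375 to 2.502 in HC, so the choice of scaling weighs on every value against CM.

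The differences with the lowest p involved FB. miR-125b-5p was 10.3-fold higher in FB than in HC (log2 difference 3.36 ± 0.11 SE, edgeR adjusted p = 1.9e-47) and 9.27-fold higher than in EC (log2 EC to FB −3.21 ± 0.11, edgeR adjusted p = 1.4e-45). miR-125b-1-3p, the chromosome 9 arm, was 15.6-fold higher in FB than in HC (3.96 ± 0.14, edgeR adjusted p = 1.9e-45) and 14.8-fold higher than in CM (log2 CM to FB −3.88 ± 0.14, edgeR adjusted p = 5.8e-45). miR-99b-5p was 6.55-fold lower in CM than in EC (−2.71 ± 0.12, edgeR adjusted p = 3.8e-37) and 4.52-fold higher in EC than in HC (2.18 ± 0.12).

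Values for miR-99a-5p and miR-100-5p depended on scaling. Between CM and FB, miR-99a-5p differed by 0.29 on the log2 TMM scale (edgeR adjusted p = 0.045) but by −1.35 when scaled by library size alone, and the call was lost without any 1 of 57 libraries (adjusted p 0.051 to 0.21). Between CM and HC the TMM differences of 2.23 for miR-99a-5p, 2.18 for miR-100-5p and 2.07 for miR-125b-5p became −0.03, −0.08 and −0.12 by library size. EC against HC gave 0.32 (edgeR adjusted p = 0.026) for miR-99a-5p and 0.47 (0.0019) for miR-100-5p on the TMM scale and −0.43 and −0.29 by library size. These calls were lost without any 1 of 45 libraries for the former and any 1 of 16 for the latter, with edgeR adjusted p up to 0.46 and 0.087. The lower level of the 4 chromosome 17 members in CM than in EC and FB did not turn with scaling.

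The 3p arms of miR-125b separated the chromosome 9 from the chromosome 16 cluster. miR-125b-1-3p averaged 4.67 CPM in CM (0.857 to 13), 40.7 in EC (7.42 to 149), 195 in FB (147 to 280) and 21.4 in HC (0 to 54). miR-125b-2-3p averaged 124 CPM in CM (36.7 to 178), 58.7 in EC (32.8 to 75.3), 263 in FB (172 to 358) and 114 in HC (50 to 200). The log2 ratio of miR-125b-1-3p to miR-125b-2-3p lay between −5.44 and −3.67 in CM, between −3.40 and −1.58 in HC, between −3.05 and 1.20 in EC and between −0.95 and 0.39 in FB. In CM and HC every library therefore held more of the chromosome 16 arm, and CM did not overlap with any other cell type. The highest HC value came from the shallow library, with 0 counts against 1. This ratio is taken within a library and does not depend on scaling, although each arm's ligation bias enters it.

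Within the seed families the make-up of the 5p products differed between the cell types. miR-125a-5p made up a median 12.8% of miR-125a-5p plus miR-125b-5p counts in CM (8.01 to 25.7), 27.2% in FB (21.2 to 34.8), 52.1% in HC (42.0 to 60.3) and 77.6% in EC (64.9 to 83.2). Only CM and FB overlapped. miR-99b-5p made up a median 1.93% of the miR-99/100 family in CM (0.428 to 3.45), 6.26% in FB (4.8 to 8.39), 9.28% in HC (6.7 to 14.7) and 23.3% in EC (18.7 to 48.8). The EC libraries lay above all others for both shares.

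Over time the 4 cell types did not follow one course. The interaction of cell type and day, tested over 15 contrasts by edgeR's quasi-likelihood test, was called for all 9 miRNAs, with adjusted p from 1.3e-15 for miR-125b-5p to 4.2e-05 for miR-99a-5p, where 76.3% of all miRNAs were called. Within each cell type, days were then compared with D0 by the same edgeR test over 484 miRNAs in CM, 421 in EC, 563 in FB and 608 in HC. Of 45 member and day comparisons per cell type, 24 were called in CM, 12 in EC, 12 in FB and 32 in HC. Over all miRNAs, the share called on a single day was 25.0 to 69.0% in CM and 0.0 to 47.0% in EC. It was 6.75 to 45.6% in FB and 24 to 59.0% in HC, so these counts have to be read day by day, as given below. Over all 6 days together, 7 of 9 were called in CM (73.8% of all miRNAs), 7 in EC (58.2%), 7 in FB (68.2%) and 9 in HC (73.5%). In these bulk libraries, fewer cells of a type and less RNA per cell cannot be told apart.

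In HC all 9 miRNAs fell at D1 and D3 on the TMM scale, with levels near or above D0 again at D28. At D1, 9 of 9 were lower than at D0 (54.3% of all miRNAs called, 28.9% lower), with a median log2 change of −1.31 against −0.08 over all miRNAs. At D3, 9 of 9 were lower (59.0% called, 28.1% lower), with a median of −1.82 against 0.02. At D7, 7 were lower (49.5% called, 19.6% lower), at D14 6 were lower (28.1% called) and at D28 1 was higher (24% called), with medians of −0.95, −0.62 and −0.09. On plain CPM the D3 libraries lay below D0 without overlap for the 5p members, 5 of 9, as for 10% of all miRNAs, and the 3p arms overlapped or met the shallow library's counts of 0 or 1. A miRNA with 0 counts in that library cannot lie below it, so its depth can hold down the share of 10%.

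The miR-125 seed family fell furthest in HC. miR-125a-5p stood at 7167, 7711, 8039 and 9180 CPM in the 4 libraries at D0, at 1620, 1775, 1786 and 1196 CPM at D3 and at 8547, 7846, 8105 and 6061 CPM at D28. All D3 libraries lay far below D0 while D28 overlapped with D0. The D3 level was 6.77-fold lower (log2 change −2.76 ± 0.23 SE, edgeR adjusted p = 2.5e-10), and stayed between −2.88 and −2.40 with any 1 library left out. miR-125b-5p stood at 5515, 5885, 7875 and 6056 CPM at D0, at 1492, 1772, 1645 and 1306 CPM at D3 and at 10263, 9039, 8188 and 8382 CPM at D28. Its D3 libraries lay below and its D28 libraries above every D0 library, a 5.37-fold fall at D3 (−2.42 ± 0.20, edgeR adjusted p = 2.5e-10) and a change of 0.32 at D28 (edgeR adjusted p = 0.24) on the TMM scale.

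The miR-99/100 family fell less far in HC. miR-99a-5p stood at 31071, 32978, 16515 and 32202 CPM at D0 and at 9374, 11583, 13011 and 8101 CPM at D3, with replicate 3, the shallow library, far below the others of D0 and yet above all of D3. The change was −1.89 ± 0.25 (edgeR adjusted p = 4.1e-07), and −2.04 ± 0.26 for miR-100-5p. miR-99b-5p stood at 4647, 5188, 5195 and 5829 CPM at D0 and at 1967, 2083, 2528 and 1659 CPM at D3, a change of −1.77 ± 0.21 (edgeR adjusted p = 9.3e-08) with no overlap.

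By DESeq2, 7 of 9 were called at D1 and 8 at D3. By library size the calls for miR-99b-3p at D1 (−0.17, edgeR adjusted p = 0.53) and D3 (−0.26, 0.30) and for miR-125a-3p at D1 (−0.41, 0.22) were lost.

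Among the 3p arms in HC, miR-125b-2-3p changed by −1.82 ± 0.18 at D3 (edgeR adjusted p = 5.1e-09), miR-125a-3p by −1.51 ± 0.29 and miR-99b-3p by −0.77 ± 0.23 (edgeR adjusted p = 0.0053). The last of these was lost without any 1 of 3 D3 libraries, replicate 1, 2 or 4 (edgeR adjusted p 0.088 to 0.099), and its call at D1 without any 1 of 4 libraries, replicate 2 or 4 of D0 or replicate 3 or 4 of D1 (0.059 to 0.11). The call for miR-125a-3p at D1 was lost without replicate 4 of D0 (0.067), and that at D7 without any 1 of 5 libraries, replicate 2 or 4 of D0 or replicate 1, 2 or 4 of D7 (0.07 to 0.18).

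miR-125b-1-3p was the member called higher in HC at D28. It stood at 14, 17, 0 and 19.1 CPM at D0, at 7.46, 9.05, 12.7 and 12.6 CPM at D3 and at 54, 48.9, 41.5 and 46.4 CPM at D28, so that every D28 library lay above the 3 deeper D0 libraries, while the 0 of replicate 3 allows up to 164 CPM. The change was −1.21 ± 0.25 at D3 (edgeR adjusted p = 0.00016) and 1.21 ± 0.24 at D28 (2.31-fold, edgeR adjusted p = 0.00046), 1.08 to 1.35 at D28 with any 1 library left out, and 1.19 (0.00056) without replicate 3 of D0. Its chromosome 16 counterpart miR-125b-2-3p had 0.06 at D28.

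Calls at D14 in HC were less firm. Those for miR-99a-5p, miR-100-5p, miR-99b-5p, miR-125b-5p and miR-125b-2-3p were each lost without any 1 of 4 to 6 libraries, among them replicates 2 and 4 of D0 and replicates 2 and 3 of D14 in every case, with edgeR adjusted p up to 0.17. Only the call for miR-125a-5p at D14 (−0.88) was kept, with adjusted p up to 0.023. Without replicate 4 of D0, 24 of the 45 HC comparisons were called, and without the shallow replicate 3 of D0, 32.

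Marker miRNAs of other cells moved in HC over the same days. Summed over 5 cardiomyocyte markers, the level was 85777 to 132342 CPM at D0 and 38494 to 64737 CPM at D3. The 2 endothelial markers summed to 54905 to 91837 CPM at D0 and 14781 to 21541 at D3, and the 2 mural markers to 21694 to 32350 and 4768 to 7316. The 5 hematopoietic markers rose from a mean of 8188 CPM at D0 to 20836 at D3 and stood at 9961 at D28, whereas the endothelial sum was still 22087 at D28, when the members were back near D0. The 3 fibroblast markers summed to 4325, 2903 and 15533 CPM at D0, D3 and D28, and the 3 erythroid markers to 1725, 532 and 506. The part of these shifts in the members' changes was not tested.

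In CM the families went in different directions. D1 had 2 calls among the 9 (25.0% of all miRNAs), D3 had 4 (55.2%), D7 had 7 (69.0%), D14 had 6 (67.1%) and D28 had 5 (54.3%). On each of these days 1 call was higher, always miR-125b-5p, and the others were lower. CM values rest on scaling more than those of the other cell types, because TMM factors in CM ranged from 0.289 to 2.043. Across all miRNAs the median log2 change, in order of the 5 days, was 0.20, 0.44, 0.35, 0.41 and 0.25 on the TMM scale and 1.42, 2.37, 2.67, 2.99 and 1.99 by library size. Changes relative to that median are therefore given beside the others.

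miR-99b-5p fell furthest in CM. It stood at 483, 636, 785 and 815 CPM at D0 and at 440, 459, 304 and 526 CPM at D14, where the D14 range reached into that of D0. On the TMM scale the same libraries read 1432, 2202, 2494 and 2285 at D0 and 231, 234, 149 and 269 at D14, without overlap. The change was −3.25 ± 0.39 (9.54-fold lower, edgeR adjusted p = 4e-07), −0.65 by library size (edgeR adjusted p = 0.021), and −3.66 or −3.64 relative to the median of all miRNAs on the respective scales. Its changes at D1, D3, D7 and D28 were −1.29, −2.02 ± 0.37, −2.90 ± 0.39 and −2.61 ± 0.38 on the TMM scale, and those at D1 and D3 were −0.31 and −0.13 by library size, not called. The D1 call (edgeR adjusted p = 0.015) was lost without any 1 of 3 libraries, replicate 3 of D0 or replicate 3 or 4 of D1 (0.065 to 0.068). Its 3p arm, miR-99b-3p, changed by −2.05 and −2.58 at D7 and D14 on the TMM scale and by 0.21 and 0.00 by library size.

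miR-125b-5p rose in CM on both scales. It stood at 818, 583, 445 and 583 CPM at D0 and at 10701, 8147, 8458 and 10650 CPM at D14. On the TMM scale the values were 2423, 2018, 1413 and 1633 at D0 and 5611, 4143, 4140 and 5432 at D14, all above D0. The change was 1.37 ± 0.23 (2.58-fold, edgeR adjusted p = 2.5e-05), 3.97 by library size, and 0.96 or 0.98 relative to the median of all miRNAs. It was 0.82, 0.76, 1.12 and 1.02 at D1, D3, D7 and D28, where the D1 call was lost without replicate 3 of D1 (edgeR adjusted p = 0.06) and the D3 call without replicate 3 of D3 (0.082).

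miR-125a-5p, which shares the miR-125b seed, was not called on any day in CM on the TMM scale. It stood at 837, 406, 333 and 403 on the TMM scale at D0 and at 697, 584, 413 and 722 at D14, with overlapping ranges and a change of 0.29. By library size the change was 2.87 and called (edgeR adjusted p = 6e-07), and relative to the median of all miRNAs it was −0.12 on either scale.

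miR-99a-5p and miR-100-5p were lower in CM on the TMM scale from D3 on, with −1.95, −1.56, −1.53 and −2.18 for miR-99a-5p and −2.13, −1.77, −1.72 and −2.29 for miR-100-5p at D3, D7, D14 and D28. By library size the values at D7 and D14 turned to 0.79 and 1.06 for miR-99a-5p and 0.58 and 0.88 for miR-100-5p, and at D3 and D28 miR-99a-5p had −0.05 and −0.60 (edgeR adjusted p = 0.91 and 0.23). Relative to the median of all miRNAs miR-99a-5p stood at −1.94 or −1.93 at D14. The libraries varied widely, at 21333, 41218, 66981 and 65707 on the TMM scale at D0 and 12975, 31089, 13076 and 10237 at D14, so that 1 D14 library reached into the range of D0. Without replicate 3 of D0 the call at D14 was lost (edgeR adjusted p = 0.059), and that at D7 was lost without it or without replicate 1 of D7 (0.055 to 0.059). Of the remaining arms, miR-125b-2-3p changed by −0.81 and −0.75 at D7 and D14 on the TMM scale but by 1.50 and 1.85 by library size. miR-125b-1-3p changed by −1.05 at D7 on the TMM scale (edgeR adjusted p = 0.025) but by 1.30 by library size, a call lost without replicate 3 or 4 of D0 or replicate 1 of D7 (0.057 to 0.079).

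Most marker sums of other cells rose in the CM libraries on plain CPM. By library size the median log2 change of all miRNAs at D14 was 2.99. Between D0 and D14 the summed fibroblast markers went from 36.5 to 114 CPM up to 1358 to 2188 CPM, the endothelial markers from a mean of 6915 to 23985 CPM and the hematopoietic markers from 87.4 to 375 CPM. Summed cardiomyocyte markers went from 659157 to 374447 CPM and mural markers from 29937 to 16925 CPM, while erythroid markers went from 1800 to 2823 CPM. miR-1a-3p made up most of the cardiomyocyte sum, with 505167 CPM on average over the days in CM. At D7 on the TMM scale miR-1a-3p changed by −2.84. By contrast, miR-133a-3p, miR-208a-3p, miR-208b-3p and miR-499-5p changed by 1.57, 2.05, 3.18 and 0.81 there, all called higher. On the TMM scale at D7 miR-126a-3p changed by −0.87 and miR-143-3p by −3.26, both called lower. Their partners miR-126a-5p and miR-145a-5p changed by 1.51 (called) and −0.01. The fibroblast markers changed by 2.32 to 3.48 and the hematopoietic ones by −0.68 to 3.67. FB held miR-125b-5p at a mean of 26144 CPM. The part of these shifts in the rise of miR-125b-5p was not tested.

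EC changed latest. At D1, 0 of 9 were called, where the edgeR test called 0.0% of all miRNAs, no member had an unadjusted p under 0.05, and DESeq2 also called 0. At D3, 3 were called (17.6% of all miRNAs), at D7 1 (22.6%), at D14 2 (14.5%) and at D28 6 (47.0%). All 6 at D28 were higher than at D0. With miR-100-5p, which was not called, they made 7 of 9 whose D28 libraries lay above D0 without overlap on plain CPM, as for 16.4% of all miRNAs, and the median log2 change of the 9 was 1.09 against 0.07 over all miRNAs. The EC libraries held 525651 to 3902765 mature counts at D28, with 66.0 to 77.5% of the table's total unmatched. At D0 they held 2105446 to 20465553, with 48.5 to 67.3% unmatched. The part of this difference in the D28 changes was not tested.

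The chromosome 9 arm rose furthest in EC. miR-125b-1-3p stood at 7.42, 15.9, 16.4 and 12.3 CPM at D0, at 38.8, 65.0, 64.7 and 67.0 CPM at D7 and at 103, 25.1, 149 and 86.3 CPM at D28. All libraries at D7 and D28 lay above D0. The change was 1.74 ± 0.35 at D7 (edgeR adjusted p = 0.00033) and 2.72 ± 0.36 at D28 (6.57-fold, edgeR adjusted p = 9.5e-07), and 2.51 to 2.99 at D28 with any 1 library left out. The calls at D3 (1.03, edgeR adjusted p = 0.035) and D14 (1.21, 0.018) were lost without any 1 of 5 and any 1 of 2 libraries, the former replicate 1, 2 or 4 of D0 or replicate 1 or 2 of D3 (0.067 to 0.14), the latter replicate 1 of D0 or replicate 3 of D14 (0.072 to 0.081). Its chromosome 16 counterpart miR-125b-2-3p stood at 62.9, 60.5, 46.3 and 49.9 CPM at D0 and at 55.2, 32.8, 64.5 and 61.2 CPM at D28, with changes between −0.12 and 0.12 over the 5 days, none called.

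The chromosome 17 members rose with it at D28. miR-99b-5p stood at 6446, 7515, 7636 and 6912 CPM at D0 and at 14394, 26009, 29356 and 12216 CPM at D28, all above D0, a change of 1.55 ± 0.27 (2.92-fold, edgeR adjusted p = 5.6e-05). The D28 libraries differed among themselves by more than the D0 libraries did. miR-125a-3p changed by 1.89 ± 0.29 (edgeR adjusted p = 1.1e-05) and miR-99b-3p by 1.09 (0.0019). miR-125a-5p stood at 7123, 7607, 7442 and 6872 CPM at D0 and at 12704, 8243, 11464 and 18653 CPM at D28, a change of 0.91 (edgeR adjusted p = 0.010) that became 0.47 (0.13) without replicate 4 of D28.

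Earlier calls in EC were few. At D3 miR-125a-5p was lower, with 3688, 4312, 4112 and 4682 CPM and a change of −0.81 (edgeR adjusted p = 0.048), lost without any 1 of the 8 libraries of D0 and D3. miR-99b-3p was higher at D3 (0.89, edgeR adjusted p = 0.019), lost without any 1 of 4 libraries, replicate 1, 2 or 4 of D0 or replicate 1 of D3. At D14 miR-125b-5p was higher (1.02, edgeR adjusted p = 0.015), a call lost without replicate 4 of D14 (0.1).

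miR-125b-5p stood at 1641, 1928, 1508 and 1541 CPM in EC at D0 and at 6883, 2225, 3284 and 5977 CPM at D28, a change of 1.53 ± 0.29 (edgeR adjusted p = 0.00013) with 1.19 to 1.72 when any 1 library was left out. miR-99a-5p stood at 11887, 14866, 12856 and 15175 CPM at D0 and at 16311, 13424, 18609 and 16582 CPM at D28, overlapping, with a change of 0.29 (edgeR adjusted p = 0.19), and miR-100-5p had 0.42 (0.061). At D28 the marker sums in EC were 103768 to 224231 CPM for endothelial, 22370 to 102093 for mural and 2195 to 7798 for fibroblast miRNAs, against 174749 to 215247, 48200 to 62913 and 2016 to 2845 at D0. Cardiomyocyte markers went from a mean of 104537 to 49234 CPM, hematopoietic from 2447 to 2472 and erythroid from 1321 to 2639. The wide spread of the mural and fibroblast sums at D28 stood beside the spread of miR-99b-5p and miR-125b-5p, and its part in them was not tested.

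In FB the members were lower at D3 and then parted. At D1, 0 of 9 were called by edgeR (7.99% of all miRNAs), although 4 had an unadjusted p under 0.05, and 0 by DESeq2. At D3, 8 of 9 were called, all lower (43.0% called, 20.1% lower), with a median of −0.84 against 0.06 over all miRNAs and 5 members below D0 without overlap on plain CPM, as for 7.82% of all miRNAs. At D7, 3 were called (45.6%), at D14 1 (24.7%) and at D28 0 (6.75%), the last with no member under an unadjusted edgeR p of 0.05 and 0 by DESeq2.

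miR-99a-5p was near its D0 level again in FB at D7. It stood at 56373, 70705, 47472 and 46298 CPM at D0, at 31182, 32860, 33219 and 40390 CPM at D3 and at 53933, 66016, 53441 and 52810 CPM at D7. Every D3 library lay below D0 and the D7 libraries lay within the range of D0. The change was −1.01 ± 0.15 at D3 (edgeR adjusted p = 1.1e-05) and −0.19 at D7, not called.

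miR-125b-5p was lower for longer. It stood at 38563, 37196, 32080 and 31600 CPM at D0, at 22919, 22670, 21697 and 20304 CPM at D3 and at 16361, 20891, 16248 and 15679 CPM at D7. At D14 it read 21848, 24523, 17893 and 20234 CPM, still below every D0 library. The change was −1.0 ± 0.16 at D3 (edgeR adjusted p = 2e-05), −1.23 ± 0.16 at D7 (2.35-fold lower, 1.5e-06), −0.75 ± 0.16 at D14 (0.0014) and −0.21 at D28 (0.53).

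miR-125a-5p shared the longer course. It stood at 14305, 15977, 11222 and 10886 CPM at D0, at 6155, 8112, 7810 and 6551 CPM at D3 and at 8751, 8782, 6958 and 6748 CPM at D7, all below D0. The change was −1.19 ± 0.18 at D3 (edgeR adjusted p = 1.1e-05) and −0.97 at D7 (0.00014). At D3 miR-100-5p changed by −0.99 and miR-125b-2-3p by −0.84, while miR-99b-3p had 0.06.

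Smaller changes in FB at D3 depended on single libraries and on scaling. miR-125a-3p (−0.67) lost its call without replicate 2 of D0 or replicate 1 or 4 of D3 (edgeR adjusted p 0.061 to 0.24), miR-125b-1-3p (−0.65) without replicate 2 of D0 (0.094) and miR-99b-5p (−0.56) without replicate 2 of D0 or replicate 1 of D3 (0.053 to 0.083). By library size they were −0.35 (edgeR adjusted p = 0.25), −0.33 (0.18) and −0.24 (0.23), none called. The fibroblast markers in these libraries summed to a mean of 54638 CPM at D0, 76397 at D3 and 53467 at D7, and the hematopoietic markers to 236, 308 and 176. Endothelial markers summed to 27244, 30058 and 26328 CPM on those days, mural to 26524, 21066 and 31157, cardiomyocyte to 3229, 2808 and 1558 and erythroid to 1462, 2263 and 863.

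**Figure D2:**
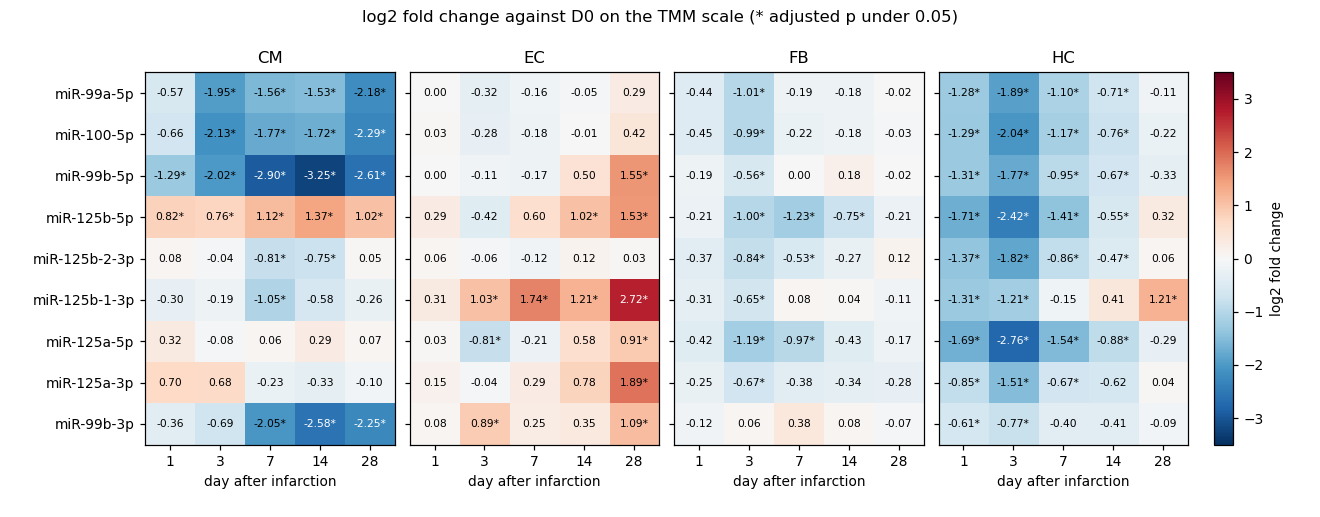
Log2 change of each of the 9 miRNAs (rows) against D0 at each later day (columns) in the 4 cell types, on the TMM scale, with colour and number giving the same value and a star for an edgeR adjusted p under 0.05. HC is lower for all 9 miRNAs at D1 and D3, EC is higher for 6 at D28, and in CM miR-125b-5p is the only called rise. In CM the lower values of miR-99a-5p, miR-100-5p, miR-125b-1-3p, miR-125b-2-3p and miR-99b-3p at D7 or D14 turn to 0.00 or above when libraries are scaled by size alone.

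Cluster partners were set against each other as log2 ratios of counts within a library, which no scaling moves. For 7 ratios in 4 cell types the 6 days were compared by a permutation test with 100000 draws and adjustment over the 28 tests, and 24 of 28 had an adjusted p under 0.05, 6 of 7 in each cell type. No such share was taken over ratios of other miRNAs, so the count cannot be called particular to these pairs. Of all miRNAs, 58.2% in EC to 73.8% in CM were themselves called over the 6 days by edgeR. Direct comparisons of 4 with 4 libraries cannot go below an exact two-sided permutation p of 0.0286.

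On chromosome 17, miR-99b-5p and miR-125a-5p lie within 692 bases, and their ratio ranged from −1.59 to 2.90 over the libraries, that is from 0.33 to 7.49 counts of miR-99b-5p for each of miR-125a-5p. In CM the ratio was 0.78, 2.44, 2.90 and 2.50 at D0 and −1.59, −1.32, −1.47 and −1.43 at D14 (means 2.16 ± 0.94 and −1.45 ± 0.11 SD, n = 4, permutation test adjusted p = 0.00089 over the days). At each of D3 to D28 all 4 libraries lay below D0 (exact permutation p = 0.0286, the smallest possible). In HC it went from −0.62 ± 0.03 at D0 to 0.28, 0.23, 0.50 and 0.47 at D3 and to a mean of −0.66 at D28 (permutation test adjusted p = 0.00014), and in FB from −1.14 ± 0.09 at D0 to −0.16 ± 0.31 at D7 (permutation test adjusted p = 0.0038). miR-125a-5p thus lost more than its neighbour in HC and FB, and the reverse held in CM.

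In EC the same ratio was −0.03 ± 0.08 at D0, 0.68 ± 0.14 at D3 (exact permutation p = 0.0286) and 0.18, 1.66, 1.36 and −0.61 at D28. The permutation test over the days gave an adjusted p of 0.058, and 0.0037 without replicate 4 of D28.

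For the chromosome 16 pair, miR-99a-5p to miR-125b-5p, FB showed the tightest course. The ratio was 0.55, 0.93, 0.57 and 0.55 at D0 and 1.72, 1.66, 1.72 and 1.75 at D7, with no overlap (permutation test over the days, adjusted p = 0.00028). In CM it went from 4.60 ± 1.11 at D0 to 1.33 ± 0.88 at D28 (permutation test adjusted p = 0.014), in EC from 3.05 to 1.95 (0.0026) and in HC from 2.11 at D0 to 2.74 at D3 and 1.80 at D28 (0.0086). The HC mean at D0 rested in part on the shallow replicate 3 at 1.07, with the others at 2.41 to 2.49, and the permutation adjusted p was 9.3e-05 without it. The chromosome 9 pair, miR-100-5p to miR-125b-5p, had permutation adjusted p of 0.013 in CM, 0.0038 in EC, 0.00028 in FB and 0.013 in HC. Since miR-125b-5p has 2 sources, neither ratio belongs to 1 cluster alone.

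The 3p arms, which do mark single clusters, shifted toward chromosome 9 in EC. The log2 ratio of miR-125b-1-3p to miR-125b-2-3p was −3.05, −1.92, −1.49 and −1.99 at D0 and 0.89, −0.38, 1.20 and 0.49 at D28 (means −2.11 ± 0.66 and 0.55 ± 0.68 SD, n = 4), with no overlap and a permutation adjusted p of 0.00014 over the days. In HC the mean went from −3.05 at its lowest day to −1.97 at D28 (permutation test adjusted p = 0.020, and 0.051 without replicate 4 of D1). In FB the adjusted p was 0.029 by the same permutation test, and 0.054 to 0.081 without replicate 1 or 4 of D7 or replicate 1 or 4 of D28. In CM, where group means lay between −5.03 and −4.54, it was 0.71.

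Between the seed-sharing miR-125a-5p and miR-125b-5p, permutation adjusted p over the days were 0.0086 in CM, 0.012 in EC, 0.0010 in FB and 0.00050 in HC. The log2 ratio fell from 2.14 at D0 to 1.34 at D7 in EC. For miR-99b-5p to miR-99a-5p they were 0.014 in CM, 0.010 in EC, 0.026 in FB and 0.39 in HC, the last becoming 0.040 without the shallow replicate 3 of D0 and that of FB 0.05 without replicate 2 of D3.

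**Figure D3:**
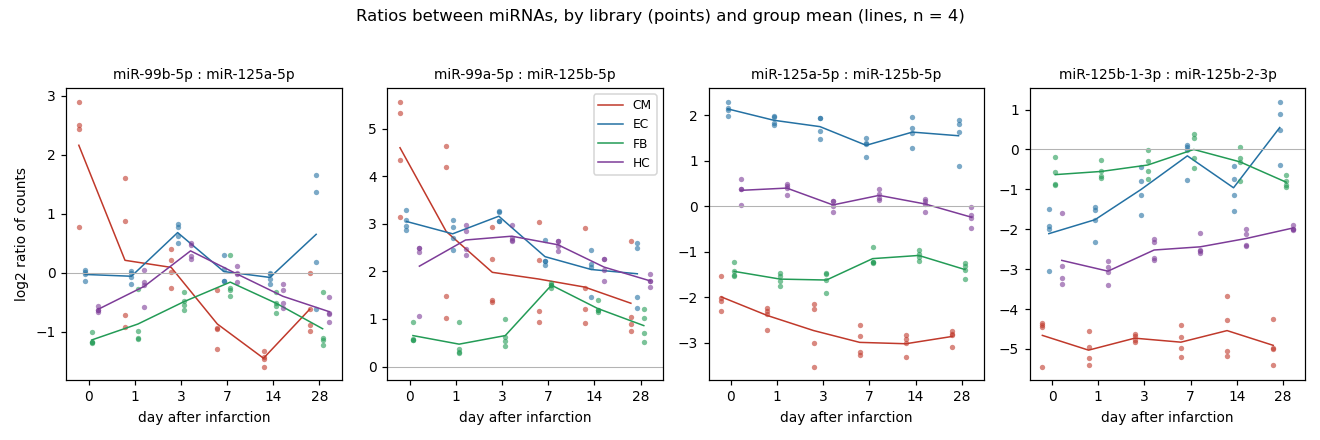
Log2 ratios of counts for 4 pairs of miRNAs against day after infarction, with points for libraries and lines for group means (n = 4). The ratio of miR-99b-5p to miR-125a-5p falls from 2.16 to −1.45 in CM and peaks at D3 in HC, that of miR-99a-5p to miR-125b-5p peaks at D7 in FB, and that of miR-125b-1-3p to miR-125b-2-3p rises from −2.11 to 0.55 in EC.

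miR-99a-5p and miR-100-5p come from different chromosomes and differ at base 16, yet their mature counts kept almost 1 ratio. The log2 ratio of miR-99a-5p to miR-100-5p lay between −0.05 and 0.57 in all 96 libraries, with an SD of 0.13. Among 11 pairs of miRNAs that differ by 1 substitution and had at least 100 counts in at least 90 libraries, this SD was the 4th smallest, after 0.08 for miR-29a-3p and miR-29c-3p, 0.10 for miR-103-3p and miR-107-3p and 0.11 for miR-10a-5p and miR-10b-5p, and the largest was 0.52 for let-7a-5p and let-7c-5p. Differences between days were within this narrow range, with permutation adjusted p of 0.0038 in CM, 0.0038 in EC, 0.28 in FB and 0.0049 in HC.

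The deposited hairpin counts gave another picture. They hold alignments to whole precursors, with 1.17 to 2.40 alignments per read if the reads were those unmatched in the mature tables, and the comparison was chosen after the mature values were seen. The miR-125b loci were not separated by hairpin counts. Counts of mir-125b-1 over mir-125b-2 stayed at 0.895 to 1.039 in all 96 libraries, while the log2 ratio of their 3p arms ran from −5.44 to 1.20. How far hairpin counts separate mir-99a from mir-100 was not tested. The log2 ratio of mir-99a to mir-100 hairpin counts lay between −1.10 and 4.01, with an SD of 1.10. By cell type it ran from 1.14 to 3.94 in CM, from −1.10 to 2.25 in EC, from 0.68 to 1.72 in FB and from 3.13 to 4.01 in HC. mir-99a took a median 88.9% of the hairpin counts of both in CM, 74.8% in EC, 71.9% in FB and 92.7% in HC, against 56.6%, 53.0%, 52.2% and 55.6% for miR-99a-5p in the mature tables. In CM the hairpin ratio went from 1.57 at D0 to 3.65 at D14, and in EC from 1.75 at D0 to 0.33 ± 1.03 (SD, n = 4) at D28.

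Over the 24 group means, the ratio of miR-125b-2-3p to miR-125b-1-3p had a Pearson correlation of 0.68 with the hairpin ratio and 0.83 with the mature ratio, and the hairpin and mature ratios one of 0.86. These are descriptions over groups that share cell types and tables. How reads 1 base apart were divided between miR-99a-5p and miR-100-5p is not given in the sources used here, and its part in the narrow mature ratio was not tested.

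**Figure D4:**
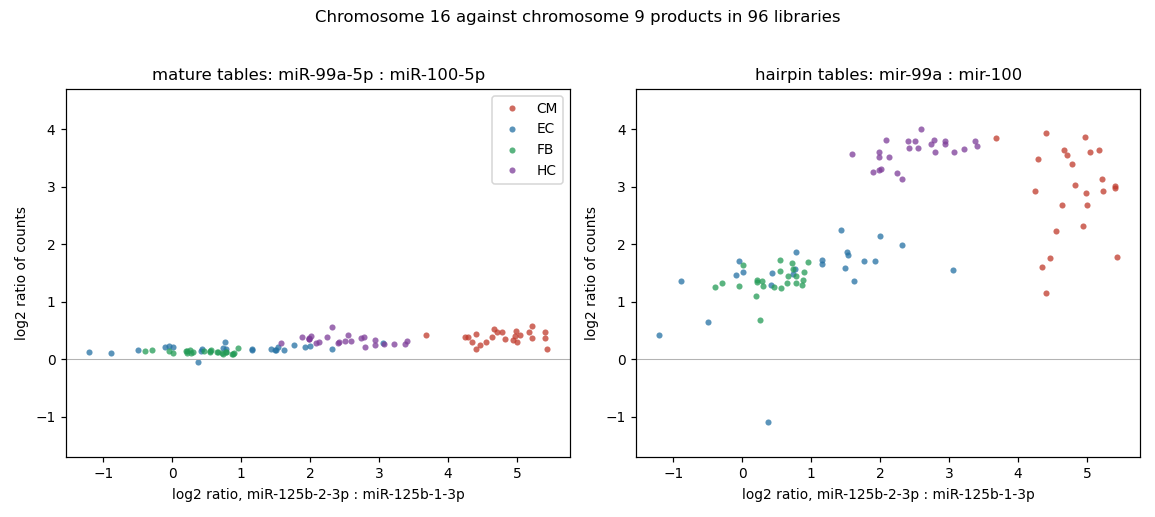
Log2 ratio of miR-99a-5p to miR-100-5p in the mature tables (left) and of mir-99a to mir-100 in the hairpin tables (right), both against the log2 ratio of miR-125b-2-3p to miR-125b-1-3p, for 96 libraries coloured by cell type on a shared vertical axis. The mature ratio lies between −0.05 and 0.57, the hairpin ratio between −1.10 and 4.01, with HC highest at 3.13 to 4.01.

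The balance of the 5p and 3p arms of each hairpin was tested over the days with limma on log2 ratios of counts. For miR-99b, miR-125a and miR-125b (its 3p arms summed), 2 of 3 changed in CM, where 71.0% of all miRNAs with both arms counted did, 3 of 3 in EC (41.0%), 2 of 3 in FB (50.7%) and 3 of 3 in HC (16.3%). With a pseudocount of 5 in place of 0.5, 0 of 3 changed in HC (limma adjusted p 0.49 for miR-99b, 0.65 for miR-125a and 0.050 for miR-125b), and without the shallow replicate 3 of D0 all 3 did (2.7e-05, 0.0043 and 0.00095).

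The miR-99b ratio was lowest at D3 in all 4 cell types. It went from 7.03 at D0 to 5.74 in CM (limma adjusted p = 0.00025), from 6.62 to 5.62 in EC (0.00017), from 6.26 to 5.68 in FB (0.00088) and from 6.74 to 5.40 in HC (0.0025). The HC libraries at D0 spanned 6.40 to 7.58, the highest from the shallow replicate 3 with 95 counts of miR-99b-5p and 0 of miR-99b-3p. In HC the limma adjusted p was 0.49 with a pseudocount of 5 and 2.7e-05 without that library. D3 was the lowest day for 8.08% of arm ratios in CM, 13.5% in EC, 27.9% in FB and 21.1% in HC, a count made after the pattern was seen. The let-7e hairpin, which lies between Mir99b and Mir125a, had arm ratios of 7.93 at D0 and 7.92 at D3 in EC, 8.40 and 8.45 in FB, 8.74 and 10.27 in HC and 10.87 and 9.04 in CM.

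For miR-125b the arm ratio rose in CM from 3.71 at D0 to 5.82 at D14 (limma adjusted p = 0.00025) and fell in FB from 6.12 at D0 to 5.13 at D7 (0.0014). In HC the limma adjusted p was 0.027. In EC it was 0.032, lost without any 1 of the 4 D3 libraries (limma adjusted p 0.055 to 0.090). The miR-125a ratio went from 8.20 at D0 to 6.92 at D3 in HC (limma adjusted p = 0.0081). Over the days its adjusted p by limma was 0.043 in EC, lost without any 1 of 21 libraries (0.052 to 0.078), 0.058 in CM and 0.057 in FB.

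**Figure D5:**
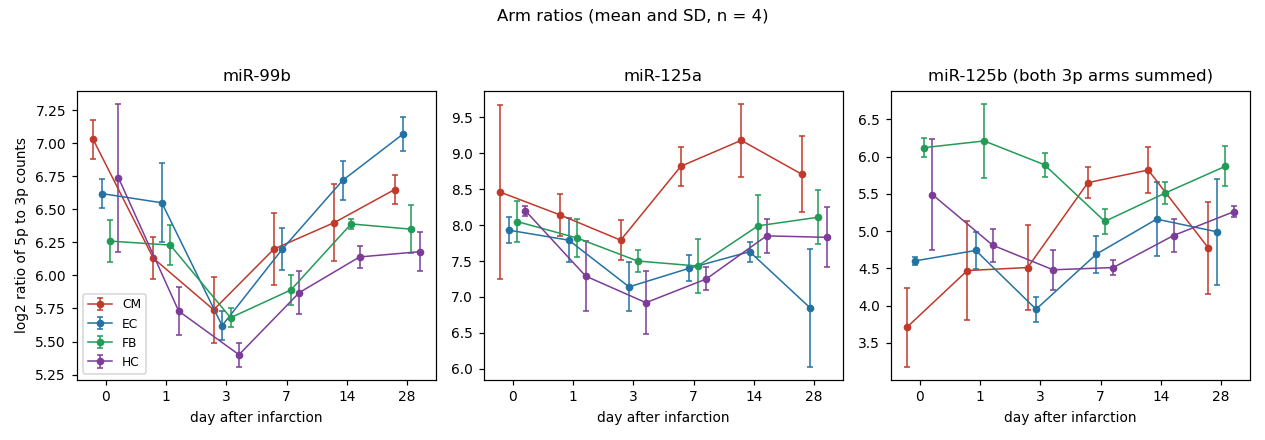
Arm balance, as the log2 of 5p over 3p counts, of miR-99b, miR-125a and miR-125b against day after infarction, as mean and SD of 4 libraries in each cell type. The miR-99b ratio is lowest at D3 in all 4 cell types, and the miR-125b ratio rises from 3.71 to 5.82 in CM and falls from 6.12 to 5.13 in FB.

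The let-7 miRNAs of the clusters, which act as regulators of differentiation, were taken as a list of partners. let-7a-5p and let-7c-5p have further genes outside these clusters, so only the chromosome-specific arms and let-7e belong to 1 cluster. In EC at D28 let-7e-5p changed by 1.39 (edgeR adjusted p = 5.7e-05), let-7c-5p by 1.34 (5.3e-05) and let-7a-5p by 1.09 (8e-05), beside 1.55 for miR-99b-5p. Their 3p arms were not called there, let-7e-3p at 0.00 (edgeR adjusted p = 0.99) and let-7c-1-3p at 1.08 (0.1). In HC at D3 let-7e-3p changed by −2.07 (edgeR adjusted p = 3.9e-07) and let-7e-5p by −0.42 (0.027), between neighbours at −1.77 and −2.76. let-7c-1-3p, of chromosome 16, changed by −0.95 and let-7c-5p by −0.75, whereas let-7a-5p had −0.26, not called.

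In FB at D3 let-7c-5p changed by −0.73, let-7e-3p by −0.59, let-7e-5p by −0.55 and let-7a-5p by −0.47, all called lower, whereas let-7c-1-3p had 0.13 (edgeR adjusted p = 0.61). In CM let-7a-5p was called lower on all 5 days on the TMM scale (−0.78 to −1.64), while its plain CPM rose from a mean of 11046 at D0 to 21707 at D14, so its direction turned with scaling. let-7c-1-3p changed by −1.86, −2.57, −1.93 and −1.51 at D3, D7, D14 and D28 in CM on the TMM scale, while its plain CPM went from a mean of 6.03 at D0 to 9.58 at D14. let-7e-3p was called higher on all 5 days there (0.82 to 1.53). The counterpart arms miR-99a-3p, miR-100-3p and let-7a-2-3p had at most 7, 233 and 31 counts in any library. miR-99a-3p did not pass the filter in any cell type, miR-100-3p was tested in CM and FB and called on no day, and let-7a-2-3p was tested in FB, where it was lower at D7 (−1.50, edgeR adjusted p = 0.027) and D14 (−1.46, 0.045).

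Patterns were compared by Pearson correlation over the 24 group means of log2 CPM on the TMM scale of the 96 libraries, not plain CPM. Among 285 miRNAs compared, those most like miR-99a-5p were miR-3074-1-3p (0.896), miR-345-3p (0.871) and miR-152-5p (0.831). Those most like miR-99b-5p were miR-151-3p (0.922), miR-211-5p (0.886) and miR-122b-3p (0.883), and those most like miR-125a-5p were miR-320-3p (0.917), miR-224-5p (0.904) and miR-672-5p (0.894). For miR-125b-5p the nearest were let-7d-5p (0.851), miR-136-3p (0.798) and miR-199a-5p (0.748), the last one of the fibroblast markers. Among the members, miR-99a-5p correlated with miR-100-5p at 0.994, with miR-125b-2-3p at 0.921, with miR-125b-5p at 0.821 and with miR-99b-5p at 0.026. miR-99b-5p correlated with miR-125a-5p at 0.839 and with its own 3p arm at 0.942, while miR-125a-5p and miR-125b-5p, of 1 seed, had 0.329. These correlations describe groups that share 4 cell types and their library depths.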

How the data were processed

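Small RNA libraries of CM, EC, FB and HC at 6 time points were analysed from the tables of raw counts that the authors deposited, 1 for mature miRNAs and 1 for hairpins per library. Per the study's methods, reads under 18 bases were removed and the rest aligned to miRBase 21 with the nf-core small RNA pipeline. The submitters' processing notes name Trim Galore, Bowtie2, SAMtools and build mm10, and settings are not given in the sources used here. The unmatched line of each mature table (25.6 to 83.0% of its total) was left out of library sizes. Depth set the precision, and limits for 0 counts (3 counts per library) cover counting error only, since reads carried no molecular identifiers.

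Members and lists were chosen with earlier results of these data known. Groups came from the labels. Counts were filtered with filterByExpr, scaled by TMM and tested with edgeR 4.0.16 quasi-likelihood models in R 4.3.3, within each cell type over 24 libraries and between cell types over 96. p-values were adjusted by Benjamini-Hochberg over all miRNAs tested, with a threshold of 0.05. Cluster ratios, with 0.5 added to counts, were tested by 100000 permutations of day labels, and arm ratios with at least 10 mean counts per arm with limma 3.58.1. Alternatives were library size scaling, no filter, DESeq2 1.42.0, the compared days alone, D0 alone, a replicate block, a pseudocount of 5, an arm minimum of 50 and leaving out libraries. The scripts were tested on simulated data. Sequences and positions came from RefSeq and GRCm38 annotation. Named miRNAs were the 9 members, the other arms of their clusters, cell type markers and the 3 patterns nearest to each 5p member.

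Per the study's methods the cell types of a time point came from the same animals. Whether equal numbers mark the same pool is not given in the sources used here, and the libraries' deviations did not meet the criterion set for pairing (a correlation over 0.1 in every pair). Deviations from group means correlated at a mean of 0.058 between cell types of the same day and number (144 pairs, 58 over 0.1) and at −0.019 for different numbers (432 pairs, 122 over 0.1). Pools that share animals could also miss so strict a criterion, so it cannot decide whether libraries were paired.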

Additional observations from a re-analysis of the deposited data

Results flagged for a closer look

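The libraries of each group were checked for 1 library far from the other 3 by Dixon's 95% critical value, on log2 CPM with TMM scaling within the cell type. Of 216 groups of 4, 13 were found, where chance gives about 1 in 20.

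In HC at D0 the shallow replicate 3 stood low for miR-99a-5p (13.90, others 15.22 to 15.39), miR-100-5p (13.61, others 14.96 to 15.15) and miR-125b-2-3p (6.24, others 7.49 to 7.69). In HC at D1 replicate 4 stood low for miR-125b-1-3p (2.62, others 3.25 to 3.31).

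In CM at D28 replicate 1 stood high for miR-99a-5p (14.39, others 12.75 to 12.85) and miR-100-5p (14.09, others 12.36 to 12.49). Single CM libraries also stood high for miR-99b-3p at D7 (replicate 1, 2.62, others 1.64 to 1.74), miR-125b-5p at D7 (replicate 2, 12.29, others 11.85 to 11.91) and miR-125b-1-3p at D3 (replicate 1, 2.73, others 2.13 to 2.19).

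Replicate 4 of EC at D14 stood high for both miR-99b-5p (14.19, others 12.96 to 13.02) and miR-125a-5p (14.37, others 12.99 to 13.14), the chromosome 17 pair. Replicate 4 of EC at D28 stood high for miR-125a-5p (14.67, others 13.33 to 13.50), and replicate 4 of FB at D28 low for the same miRNA (13.08, others 13.73 to 13.79).

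The change over days differed between cell types for all 9 miRNAs by the interaction test of edgeR. Adjusted p were 4.2e-05 for miR-99a-5p, 3.9e-05 for miR-100-5p, 1.3e-14 for miR-99b-5p, 2.4e-10 for miR-99b-3p, 9.3e-10 for miR-125a-5p, 7.2e-09 for miR-125a-3p, 1.3e-15 for miR-125b-5p, 2.5e-11 for miR-125b-1-3p and 5e-11 for miR-125b-2-3p.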

How the results depend on the processing

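Counts of calls stayed within 1.5 times of those reported under every alternative except for arm ratios, where 0 of 3 were called in HC with a pseudocount of 5, and 1 of 3 in EC without replicate 1, 2 or 3 of D3. Calls against D0, of 45, ranged with 1 library left out from 20 to 26 in CM, 8 to 14 in EC, 10 to 14 in FB and 24 to 32 in HC. Over all 6 days they ranged from 7 to 8, 6 to 8, 5 to 8 and 8 to 9 of 9, and between cell types from 47 to 49 of 54. The interaction stayed at 9 to 9, ratios at 6 to 6 in CM, 6 to 7 in EC, 5 to 6 in FB and 5 to 7 in HC, and arm ratios at 2 to 3, 1 to 3, 2 to 3 and 3 to 3. Of 80 day calls, DESeq2 kept 75, no filter 71, the compared days alone 72 and library size 50, with 9 reversed. The study removed 1 replicate each of EC at D28, FB at D0 and HC at D0 as outliers, and its text does not number them. Without replicate 4 of these groups, taken here as the ones it did not plot, 45 of 56 were kept, and HC had 24 of 45. Without the farthest replicates of the same groups, among them the shallow library of HC at D0, 51 of 56 were kept.

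Scaling by library size reversed these CM values at D7 and D14, respectively: miR-99a-5p 0.79 and 1.06, miR-100-5p 0.58 and 0.88, miR-125b-2-3p 1.50 and 1.85, miR-99b-3p 0.21 and 0.00, and miR-125b-1-3p at D7 1.30. Between cell types it reversed CM to FB for miR-99a-5p (−1.35) and miR-125b-2-3p (−1.20), CM to HC for miR-99a-5p (−0.03), miR-100-5p (−0.08) and miR-125b-5p (−0.12), and EC to HC for miR-99a-5p (−0.43) and miR-100-5p (−0.29). Without the filter the latter pair read −0.17 and −0.03, and at D0 alone −0.37 and −0.33, with miR-99b-5p at 0.47 for CM to HC. The causes were not tested.

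With the replicate number as a block, 24, 12, 12 and 31 of 45 day calls were made in CM, EC, FB and HC and 47 of 54 between cell types. The calls lost were miR-125b-2-3p in HC at D14, miR-99a-5p between CM and FB (0.20, edgeR adjusted p = 0.16) and the ratio of miR-99b-5p to miR-99a-5p in FB (permutation adjusted p = 0.054). The block joined libraries of the same day and number between cell types, and of the same number within a cell type. Depth limits the 3p arms most, above all in HC at D0.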
